A study of Mus musculus with 26 samples.

Results

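A set of 10 genes whose transcripts mark the pluripotent state of mouse embryonic stem cells (ESCs) were followed across ESC clones that had lost the orphan nuclear receptor ERR beta and then received a form of it, or its relative ERR gamma, from an inducible construct. The 10 genes were Pou5f1, Sox2, Sall4, Lin28a, L1td1, Utf1, Dppa5a, Dppa4, Dppa2 and Tdgf1. They were taken as a list of general pluripotency genes from the 24421 genes of the count table. The list was chosen with earlier results of these data known. All 10 were among the 15238 genes with enough counts to be tested. The groups, each of 2 clones, were as follows. The first 3 expressed mutant ERR beta in ERR beta -/- cells: KO_ERRb_DBDm3 (deficient in DNA binding), KO_ERRb_DBDm6 (deficient in binding TFIIH, a general factor that unwinds promoter DNA) and KO_ERRb_AF2M6 (deficient in coactivator binding). KO_ERRg_wt and KO_ERRb_wt were ERR beta -/- cells with wild-type ERR gamma and wild-type ERR beta. KO_mock was the ERR beta -/- line with no ectopic receptor, and WT_mock was wild type with no ectopic receptor. All groups, mock ones included, were grown for 3 days with doxycycline at 2 µg/ml on laminin-coated plastic after 1600 cells had been seeded. The design text gives N2B27 with inhibitors of MEK and GSK3 as the medium, whereas the growth protocol adds LIF, so whether LIF was present is not settled by the labels. RNA was sequenced after removal of ribosomal RNA, in 2 libraries per clone (1 for each KO_ERRg_wt clone), 26 libraries from 14 clones.

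Pluripotency in mouse ESCs rests on a small circuit of transcription factors, in which OCT4 (the product of Pou5f1) and SOX2 bind DNA side by side and switch on their own genes and those of partners such as NANOG and ERR beta itself. Around that circuit stand proteins that act on RNA, as LIN28A does when it blocks maturation of the let-7 microRNAs, and proteins that sit on chromatin, as UTF1, DPPA2 and DPPA4 do. ERR beta binds DNA alone at an extended half-site and is known in ESCs as a partner of OCT4 and a target of GSK3 inhibition through TCF3.

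Library totals ran from 21276790 to 30021667 counts, and clone totals from 25103562 to 54105869. Levels are given as CPM, counts scaled to a common clone total with TMM factors, with n = 2 clones per group. Esrrb, the gene of ERR beta, stood at 517 ± 50.5 CPM in KO_ERRb_DBDm3, 530 ± 29.2 CPM in KO_ERRb_DBDm6, 451 ± 18 CPM in KO_ERRb_AF2M6 and 471 ± 8.03 CPM in KO_ERRg_wt. It stood at 420 ± 13.5 CPM in KO_ERRb_wt, 277 ± 0.744 CPM in KO_mock and 581 ± 29.9 CPM in WT_mock (SD, n = 2 each). Reads of the disrupted gene and of a construct are not separated in these counts, so the Esrrb row does not check the knockout. Esrrg stood at 177 ± 73.8 CPM in KO_ERRg_wt and had at most 12 counts in any other group. The median gene of chromosome 6 was lower than in WT_mock in all 8 clones of the mutant and ERR gamma groups, by 0.33 to 0.94 on the log2 scale, with the smaller shift in clone 9-6 (-0.41) and in both KO_ERRg_wt clones. Genes of chromosome 8 were lower in the same 8 clones and genes of chromosome 14 in all ERR beta -/- clones. None of the 10 genes lies on those chromosomes, and the median of the 7 chromosomes that hold them stayed between -0.02 and 0.11 in every clone. The mutant and ERR gamma clones thus differ from KO_mock and KO_ERRb_wt in more than the receptor they express, and the part of these shifts in any result was not tested.

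Markers of other cell types that an ESC culture could hold were low beside the 10 genes, whose summed level was 2750 to 3470 CPM per clone. The 10 primitive endoderm markers summed to 22.4 to 73.8 CPM in the 3 mutant groups, 108 to 117 CPM in KO_ERRg_wt, 95.6 to 124 CPM in KO_ERRb_wt, 91.2 to 92.5 CPM in KO_mock and 79.4 to 80.8 CPM in WT_mock. The 10 trophoblast markers summed to 128 to 194 CPM in the mutant groups and 110 to 118 CPM in KO_ERRg_wt. They summed to 70.3 to 77.5 CPM in KO_ERRb_wt, 64 to 70.4 CPM in KO_mock and 83 to 83.4 CPM in WT_mock. Single markers moved both ways. Of 8 tested, edgeR called 2 higher than in KO_mock in each mutant group (adjusted p below 0.05). It called 4, 2 and 1 lower in KO_ERRb_DBDm3, KO_ERRb_DBDm6 and KO_ERRb_AF2M6, with medians of -0.63, -0.53 and -0.20 on the log2 scale. Of all tested genes, 25.7%, 41.4% and 37.1% were called. Elf5 was at 0 in KO_ERRg_wt, KO_ERRb_DBDm6, KO_mock and WT_mock, and Hand1 in KO_ERRg_wt and KO_ERRb_DBDm3. The 8 primitive streak and mesoderm markers summed to 7.15 to 43.1 CPM in the mutant groups, 4.73 to 6.92 CPM in KO_ERRg_wt, 39.5 to 57 CPM in KO_ERRb_wt, 55.5 to 63.1 CPM in KO_mock and 11.3 to 17.2 CPM in WT_mock. The 7 neuroectoderm markers summed to 55.1 to 79 CPM in the mutant groups, 71.7 to 76.1 CPM in KO_ERRg_wt, 65.8 to 69.9 CPM in KO_ERRb_wt, 87.5 to 98.3 CPM in KO_mock and 72.9 to 74.7 CPM in WT_mock. The 8 fibroblast markers summed to 176 to 265 CPM in the mutant groups and 262 to 272 CPM in KO_ERRg_wt. They summed to 140 to 185 CPM in KO_ERRb_wt, 176 to 197 CPM in KO_mock and 86.9 to 105 CPM in WT_mock. Of 5 tested, 2 were called higher and 2 lower in KO_mock than in WT_mock, where 37.4% of all tested genes were called. Postn was at 0 in every group. The part of such cells in the results below was not tested. In bulk RNA, fewer cells that express a gene and less RNA of it per cell cannot be told apart.

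The 250 bases before the RefSeq start (GRCm38.p6) are shown for Sox2 and Utf1, whose levels ranged most widely over the clones, and for Lin28a and L1td1, which moved together in some comparisons below and apart in others. They are read on the gene's strand from 5′ to 3′, and capitals mark letters that match a searched motif or its reverse complement.
Sox2, plus strand of chr3:34649745-34649994: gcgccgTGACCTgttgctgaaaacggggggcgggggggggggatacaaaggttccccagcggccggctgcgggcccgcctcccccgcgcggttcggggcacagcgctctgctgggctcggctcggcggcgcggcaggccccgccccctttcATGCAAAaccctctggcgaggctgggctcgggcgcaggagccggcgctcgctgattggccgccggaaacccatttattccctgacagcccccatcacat
Utf1, plus strand of chr7:139943606-139943855: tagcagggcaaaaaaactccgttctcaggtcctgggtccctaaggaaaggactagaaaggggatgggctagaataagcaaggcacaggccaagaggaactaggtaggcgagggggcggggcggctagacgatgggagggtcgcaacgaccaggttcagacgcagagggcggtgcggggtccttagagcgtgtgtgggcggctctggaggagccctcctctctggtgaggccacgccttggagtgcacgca
Lin28a, minus strand of chr4:134018817-134019066: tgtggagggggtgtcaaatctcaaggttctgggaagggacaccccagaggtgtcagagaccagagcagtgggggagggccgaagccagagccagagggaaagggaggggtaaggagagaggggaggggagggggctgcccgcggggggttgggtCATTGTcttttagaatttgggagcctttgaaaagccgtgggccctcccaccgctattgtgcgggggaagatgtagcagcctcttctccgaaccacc
L1td1, plus strand of chr4:98726504-98726753: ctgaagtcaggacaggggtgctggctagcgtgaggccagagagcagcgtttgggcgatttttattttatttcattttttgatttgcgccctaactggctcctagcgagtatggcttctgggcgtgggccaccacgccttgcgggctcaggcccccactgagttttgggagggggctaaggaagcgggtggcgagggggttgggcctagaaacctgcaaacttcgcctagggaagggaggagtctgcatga
The motifs searched on both strands were TCAAGGTCA, the extended half-site that ERR proteins bind, AGGTCA, the hormone receptor half-site that lies within it, ATGCAAA, the octamer core read by OCT4, and ACAATG, a core read by SOX proteins. Of the 10 genes, 6 had such a window (also Pou5f1 and Tdgf1), and the extended half-site was in none of the 6, against 0.387% of all 32851 windows. The Sox2 window held AGGTCA on the minus strand 244 bases before the start and ATGCAAA on the plus strand 99 bases before it. AGGTCA lay 33 bases before the start of Pou5f1, on its own strand, and ACAATG lay 96 bases before that of Lin28a on the opposite strand. AGGTCA was in 14% of all windows, ATGCAAA in 4.12% and ACAATG in 10.7%. A match is a run of letters and not a bound site, and ERR beta may bind elsewhere at these genes.

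All 10 genes were expressed in every clone. Per kilobase of exon, the median level over the 14 clones was highest for Dppa5a (974 CPM per kb) and Pou5f1 (555 CPM per kb). Sox2 (157), Lin28a (115), Tdgf1 (114), L1td1 (85.7), Sall4 (76.2), Dppa4 (60.4), Utf1 (50.4) and Dppa2 (22.7 CPM per kb) followed. Each of the 10 genes differed among the 7 groups by edgeR's quasi-likelihood test, with adjusted p from 2.2e-05 for Utf1 to 0.0273 for Dppa4, where 69.6% of all tested genes did. Between 7 and 10 of the 10 passed with any single clone left out, the fewest without 12-3. The highest clone was 2.83 times the lowest for Utf1, the widest range among the 10, and 2.49 times for Sox2. It was 2.37 times for Tdgf1, 2.28 times for Sall4, 2.2 times for Lin28a and 2.1 times for Dppa5a. The narrowest ranges were 1.88 for L1td1, 1.55 for Dppa2, 1.46 for Dppa4 and 1.34 for Pou5f1. The libraries of a clone differed by at most 0.39 on the log2 scale for any of the 10 genes (Utf1), and the clones of a group by at most 0.63 (Tdgf1).

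**Figure D1:**
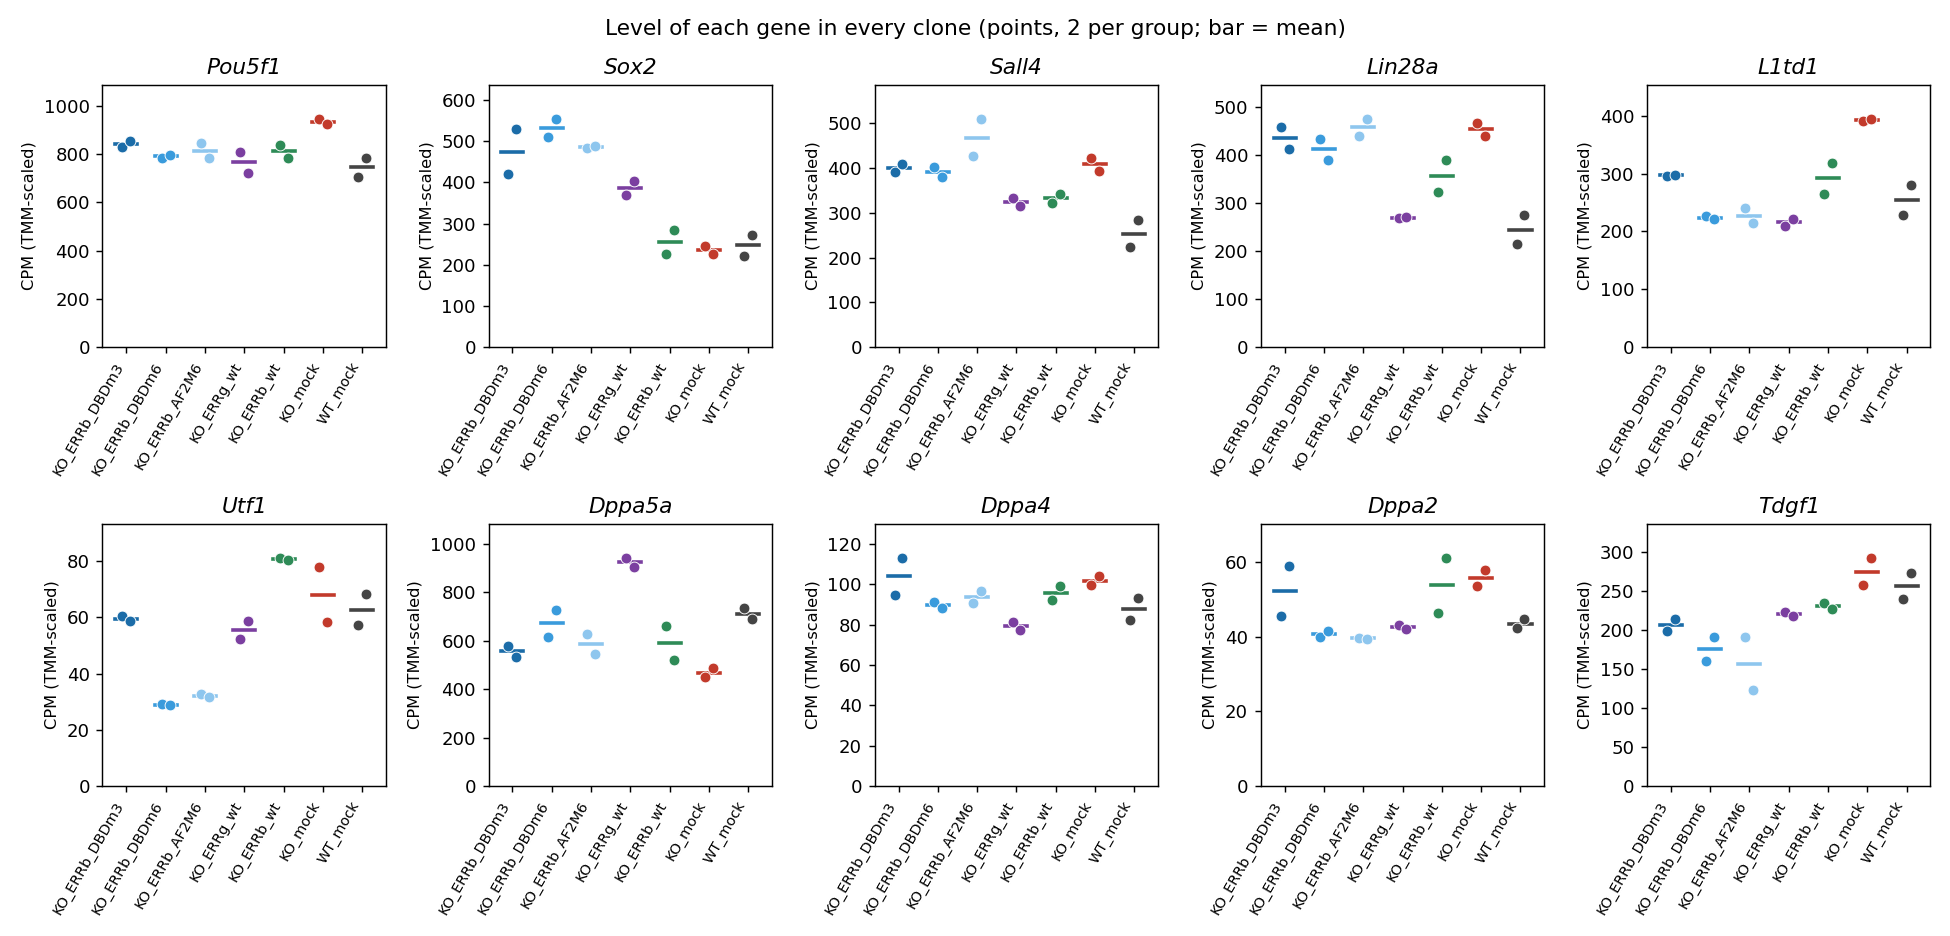
Level of each of the 10 genes in every clone, in CPM after TMM scaling, 1 panel per gene with axes that start at 0. Points are the 2 clones of a group and bars their mean, with groups from KO_ERRb_DBDm3 at the left to WT_mock at the right. The 2 clones of KO_ERRb_DBDm6 and the 2 of KO_ERRb_AF2M6 sit at 28.7 to 32.7 CPM for Utf1, below all other clones.

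Sox2 (chr3:34650005-34652460 in mm10, plus strand, 1 exon) encodes the HMG-box factor that pairs with OCT4. It was 2.01- to 2.26-fold higher in the mutant receptor groups than in the knockout, and higher with ERR gamma as well, while the knockout and wild-type cells did not differ detectably. Its clones read 420 and 528 CPM in KO_ERRb_DBDm3, 509 and 553 CPM in KO_ERRb_DBDm6, 484 and 488 CPM in KO_ERRb_AF2M6 and 370 and 404 CPM in KO_ERRg_wt. They read 227 and 284 CPM in KO_ERRb_wt, 246 and 225 CPM in KO_mock and 222 and 273 CPM in WT_mock. All 8 mutant and ERR gamma clones lay above all 6 other clones, and the 6 mutant clones also lay above both KO_ERRg_wt clones. Against KO_mock the log2 fold change was 1.01 ± 0.14 in KO_ERRb_DBDm3 (SE, adjusted p = 0.000608), 1.17 ± 0.14 in KO_ERRb_DBDm6 (9.53e-05), 1.04 ± 0.14 in KO_ERRb_AF2M6 (0.000215) and 0.72 ± 0.14 in KO_ERRg_wt (0.00203). Against KO_ERRb_wt it was 0.89 ± 0.14 (adjusted p = 0.000836), 1.05 ± 0.14 (0.000179), 0.93 ± 0.14 (0.000341) and 0.60 ± 0.14 (0.00866) for the same 4 groups in that order. KO_mock against WT_mock gave -0.07 ± 0.13 (adjusted p = 0.689), with a 95% interval of -0.39 to 0.24, and KO_ERRb_wt against KO_mock gave 0.12 ± 0.13 (adjusted p = 0.658). The KO_ERRg_wt difference from KO_ERRb_wt was lost without clone 8-3 (adjusted p = 0.0663) or 14-11 (0.0665), and that of KO_ERRb_DBDm3 from KO_mock when those 4 clones were fitted alone (0.0503).

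Pou5f1 (chr17:35506032-35510777, plus strand) encodes OCT4, the POU-domain factor without which the inner cell mass is not kept. Its differences were small: it was 1.26-fold higher in KO_mock than in WT_mock, and every other group lay between. Its clones read 829 and 853 CPM in KO_ERRb_DBDm3, 785 and 794 CPM in KO_ERRb_DBDm6, 846 and 782 CPM in KO_ERRb_AF2M6 and 808 and 723 CPM in KO_ERRg_wt. They read 839 and 784 CPM in KO_ERRb_wt, 944 and 923 CPM in KO_mock and 706 and 782 CPM in WT_mock. Both KO_mock clones were above all 12 others, and all groups next to each other below KO_mock overlapped. The log2 fold change of KO_mock against WT_mock was 0.33 ± 0.072 (adjusted p = 0.0053), lost without clone 5-2 (0.0712). Against KO_mock it fell by 0.24 in KO_ERRb_DBDm6 (log2 -0.24 ± 0.072, adjusted p = 0.0193) and by 0.29 in KO_ERRg_wt (log2 -0.29 ± 0.072, 0.00944). The first of these was lost without any of 12-1, 12-3, 10-24 or 10-26 (0.068 to 0.103), and the second without 12-1 (0.0626) or 14-11 (0.0959). KO_ERRb_AF2M6 gave -0.20 ± 0.072 (adjusted p = 0.0505), and 0.0181 when TMM factors were computed without chromosomes 6, 8 and 14.

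Sall4 (chr2:168748332-168767201, minus strand) encodes a zinc-finger factor that binds AT-rich DNA and recruits the NuRD complex. It was higher in the knockout than in wild-type cells, and wild-type ERR beta left it above the wild-type level. Its clones read 392 and 408 CPM in KO_ERRb_DBDm3, 403 and 381 CPM in KO_ERRb_DBDm6, 427 and 509 CPM in KO_ERRb_AF2M6 and 333 and 315 CPM in KO_ERRg_wt. They read 322 and 343 CPM in KO_ERRb_wt, 423 and 394 CPM in KO_mock and 223 and 283 CPM in WT_mock. Both WT_mock clones were below all 12 others, and both KO_ERRb_AF2M6 clones were above all others. The log2 fold change was 0.69 ± 0.11 in KO_mock against WT_mock (adjusted p = 0.00103), 0.40 ± 0.11 in KO_ERRb_wt against WT_mock (0.0414) and 0.49 ± 0.11 in KO_ERRb_AF2M6 against KO_ERRb_wt (0.00388). KO_ERRg_wt against KO_mock gave -0.33 ± 0.11 (adjusted p = 0.0305). The KO_ERRb_wt difference from WT_mock was lost without 5-2 (adjusted p = 0.366), 8-3 (0.0674) or 8-4 (0.248), and when the 4 clones were fitted alone (0.057). That of KO_ERRg_wt was lost without any of 12-1, 12-3, 14-1-10 or 14-11 (0.0577 to 0.165).

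The other genes of the OCT4 and SOX2 circuit, a list of 18 partners and targets, moved in both directions. In the knockout, 4 were higher and 5 lower than in WT_mock, with a list median of 0.11 on the log2 scale against 0.00 for all tested genes. These 9 of 18 compare with 37.4% of all tested genes called. The list holds Esrrb, the knocked-out gene, which is 1 of the 5 (-1.07) and 1 of the higher genes in every group with a construct against KO_mock. Its reads are not split between the endogenous gene and an ERR beta construct. KO_ERRg_wt has no ERR beta construct, and there Esrrb gave 0.77 ± 0.074 against KO_mock (edgeR, adjusted p = 3.4e-05). Nanog, the homeodomain factor of the circuit, was lower by 0.71 ± 0.063 (adjusted p = 7.18e-05), Klf4, a Krüppel-like factor of the naive state, by 0.82 ± 0.15 (0.00232) and the secreted osteopontin gene Spp1 by 0.52 ± 0.1 (0.00299). Against KO_mock, 6 were higher and 2 lower in KO_ERRb_DBDm3, 8 and 3 in KO_ERRb_DBDm6, 6 and 3 in KO_ERRb_AF2M6, 7 and 4 in KO_ERRg_wt and 2 and 1 in KO_ERRb_wt. Of all tested genes, 25.7%, 41.4%, 37.1%, 38.3% and 1.85% were called in these 5 comparisons, in the same order. The list medians against KO_mock ran from -0.05 in KO_ERRb_wt to 0.17 in KO_ERRb_DBDm6, with an all-gene median of 0.00 to 0.01. With ERR gamma, Spp1 was higher by 1.31 ± 0.1 (adjusted p = 1.24e-05) and Nanog by 0.72 ± 0.063 (2.09e-05). With wild-type ERR beta, the 2 higher genes were Esrrb (0.60 ± 0.074, adjusted p = 0.00377) and Nanog, and without 12-1, 12-3 or 8-3 no gene of the list was called. Nanog was higher by 0.33 ± 0.063 (adjusted p = 0.0253), a call lost without 12-1 (0.287), 12-3 (0.113) or 8-3 (0.236). The gene of the nuclear adaptor NACC1 on chromosome 8 was lower in the 3 mutant groups, by 0.73, 0.72 and 0.81, where the median gene of that chromosome was also lower. The counts depended on single clones: in KO_mock against WT_mock the 4 higher genes became 1 without 5-2 or 12-1 and 2 without 12-3. In KO_ERRb_DBDm3 the 6 became 2 without 12-1, in KO_ERRb_DBDm6 the 8 became 4 without 12-1 and 5 without 10-26, and in KO_ERRb_AF2M6 the 6 became 3 without 12-1.

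Among SALL proteins and NuRD subunits (14 genes), the complex that SALL4 recruits, 4 were higher and 3 lower in KO_mock than in WT_mock, where 37.4% of all tested genes were called. Mbd3, the methyl-CpG-binding-domain subunit of NuRD, was higher by 0.47 ± 0.09 (adjusted p = 0.00281). Sall2, on chromosome 14, was lower by 1.22 ± 0.13 (0.000173), where the median gene of that chromosome was lower too. Hdac2 gave -0.30 ± 0.075 (adjusted p = 0.0107), lost without 5-5 (0.0618) or 12-1 (0.0948), and Gatad2a gave 0.21 ± 0.057 (0.0161), lost without 5-2 (0.0975), 5-5 (0.0573) or 12-1 (0.136). Against KO_mock the deacetylase gene Hdac2 was higher in all mutant groups, by 0.46 ± 0.075, 0.64 ± 0.075 and 0.62 ± 0.075 (adjusted p = 0.00157, 9.46e-05 and 0.000135). Higher and lower genes numbered 4 and 3 in KO_ERRb_DBDm3, 6 and 3 in KO_ERRb_DBDm6, 5 and 3 in KO_ERRb_AF2M6, 4 and 4 in KO_ERRg_wt and 0 and 0 in KO_ERRb_wt. The shares of all tested genes called were 25.7%, 41.4%, 37.1%, 38.3% and 1.85%, and the list medians ran from -0.06 (KO_ERRb_DBDm3) to 0.13 (KO_ERRb_AF2M6). Beside edgeR's 0 in KO_ERRb_wt, 3 genes had an unadjusted p below 0.05 and DESeq2 called 0. The histone-binding subunit gene Rbbp7 was lower with ERR gamma, by 0.52 ± 0.076 (0.00043). Without 1 clone the 4 higher genes of KO_mock became 1 (without 5-2 or 12-1) or 2 (without 5-5 or 12-3), and its 3 lower genes became 1 without 5-5 or 12-1. Those 4 in KO_ERRb_DBDm3 and in KO_ERRg_wt became 2 without 12-1, and the 5 in KO_ERRb_AF2M6 became 3 without it.

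Lin28a (chr4:134003330-134018816, minus strand) encodes the RNA-binding protein that holds back let-7, and L1td1 (chr4:98726754-98738486, plus strand) encodes an RNA-binding protein derived from a LINE-1 open reading frame. Both were higher in the knockout than in wild-type cells and lower with ERR gamma than in the knockout, but in the mutant receptor groups Lin28a was not called different from its knockout level while L1td1 was lower. Lin28a read 457 and 411 CPM in KO_ERRb_DBDm3, 433 and 390 CPM in KO_ERRb_DBDm6, 440 and 474 CPM in KO_ERRb_AF2M6 and 268 and 270 CPM in KO_ERRg_wt. It read 323 and 390 CPM in KO_ERRb_wt, 466 and 440 CPM in KO_mock and 215 and 274 CPM in WT_mock. WT_mock and KO_ERRg_wt overlapped each other and lay below all other clones. KO_mock exceeded WT_mock by 0.89 ± 0.12 (1.85-fold, adjusted p = 0.000496), and KO_ERRg_wt fell below KO_mock by 0.75 (log2 -0.75 ± 0.12, 0.000672). The 3 mutant groups differed from KO_mock by -0.06 ± 0.12, -0.14 ± 0.12 and 0.01 ± 0.12 (adjusted p = 0.736, 0.371 and 0.933), with 95% intervals that together spanned -0.42 to 0.29. Other differences were 0.54 ± 0.12 in KO_ERRb_wt against WT_mock (0.0179), and 0.36 ± 0.12 in KO_ERRb_AF2M6 (0.0287) and -0.41 ± 0.12 in KO_ERRg_wt (0.0272) against KO_ERRb_wt. The first was lost without 5-2 (0.188) or 8-4 (0.171), the second without 8-3 (0.203) or 32-31 (0.145), and the last without 8-4 (0.197), 14-1-10 (0.119) or 14-11 (0.109). KO_ERRb_DBDm3 against KO_ERRb_wt gave 0.28 ± 0.12 (adjusted p = 0.0861), and 0.0459 without 8-4.

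L1td1 read 296 and 298 CPM in KO_ERRb_DBDm3, 227 and 221 CPM in KO_ERRb_DBDm6, 240 and 215 CPM in KO_ERRb_AF2M6 and 210 and 221 CPM in KO_ERRg_wt. Its other clones stood at 264 and 319 CPM in KO_ERRb_wt, 391 and 394 CPM in KO_mock and 228 and 281 CPM in WT_mock. Both KO_mock clones were above all 12 others, and the ranges of KO_ERRb_DBDm6, KO_ERRb_AF2M6 and KO_ERRg_wt overlapped in part. KO_mock exceeded WT_mock by 0.63 ± 0.1 (adjusted p = 0.00139). Against KO_mock the gene fell by 0.81 in KO_ERRb_DBDm6 (log2 -0.81 ± 0.1, 0.000169), by 0.79 in KO_ERRb_AF2M6 (log2 -0.79 ± 0.1, 0.000226) and by 0.87 in KO_ERRg_wt (log2 -0.87 ± 0.1, 0.000139). In KO_ERRb_DBDm3 the difference was -0.40 ± 0.1 (0.0162), lost without 12-1 (0.0756), 12-3 (0.078) or 9-8 (0.0534) and when those 4 clones were fitted alone (0.0565). With wild-type ERR beta it was -0.43 ± 0.1 with an adjusted p of 0.0609 by edgeR, and 6 of 11 alternative fits made the call. These were DESeq2 (0.0054), limma voom on unsummed libraries without and with a block (0.00826 and 0.0143), and 3 edgeR fits. The edgeR fits were of the 4 clones alone (0.00975), without a filter on low counts (0.0401) and without clone 8-4. Against KO_ERRb_wt it was -0.38 ± 0.1 in KO_ERRb_DBDm6 (0.0139), -0.36 ± 0.1 in KO_ERRb_AF2M6 (0.0166) and -0.44 ± 0.1 in KO_ERRg_wt (0.0112). All of these were lost without clone 8-4 (0.131, 0.147 and 0.1). They were also lost without 10-24 (0.0556) or 10-26 (0.0789), without 32-31 (0.121) and without 14-1-10 (0.083).

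Of 14 tested genes around LIN28 and let-7 (of 16 listed), 7 were higher and 2 lower in KO_mock than in WT_mock, with a list median of 0.22 against 0.00 for all genes and 37.4% of all tested genes called. Igf2bp2, an RNA-binding protein gene and let-7 target, was higher by 0.83 ± 0.092 (adjusted p = 0.000189), and Mycn, another let-7 target, by 0.89 ± 0.13 (0.000873). Drosha, the nuclear microRNA nuclease, was higher by 0.33 ± 0.074 (0.00564) and Igf2bp1 by 0.27 ± 0.061 (0.00656), the last lost without 5-2 (0.0672) or 12-1 (0.0591). The 7 higher genes became 3 without 5-2 or 12-1, and the 2 lower became 0 without either of these and 1 without 12-3. Against KO_mock, 4 were higher and 1 lower in KO_ERRb_DBDm3, 3 and 2 in KO_ERRb_DBDm6, 4 and 2 in KO_ERRb_AF2M6, 3 and 4 in KO_ERRg_wt and 0 and 0 in KO_ERRb_wt. In the same 5 comparisons 25.7%, 41.4%, 37.1%, 38.3% and 1.85% of all tested genes were called, and the list medians ran from -0.14 (KO_ERRg_wt) to 0.03 (KO_ERRb_DBDm3). Where edgeR called 0 in KO_ERRb_wt, 2 genes had an unadjusted p below 0.05 and DESeq2 called 2. Igf2bp2 was higher again in the 3 mutant groups, by 0.48 ± 0.091, 0.83 ± 0.091 and 0.58 ± 0.091 (0.00355, 6.31e-05 and 0.000578). Arid3b, also a let-7 target, was higher in KO_ERRb_DBDm3 by 0.72 ± 0.12 (0.00162), and Dis3l2, which degrades tailed let-7 precursors, was higher in KO_ERRb_DBDm6 by 0.77 ± 0.15 (0.00179). With ERR gamma, Mycn was lower by 0.75 ± 0.13 (0.00138) and Dicer1 by 0.35 ± 0.07 (0.00249), and the 3 higher genes became 0 without any of 12-1, 12-3, 14-1-10 or 14-11. The 4 higher genes of KO_ERRb_DBDm3 and of KO_ERRb_AF2M6 became 2 without 12-3. The 1 lower gene of KO_ERRb_DBDm3 became 0 without 12-1 or 12-3 and 2 without 9-6 or 9-8. The 2 lower genes of KO_ERRb_DBDm6 became 0 without 12-1, 12-3 or 10-26 and 1 without 10-24, and those of KO_ERRb_AF2M6 became 1 without 12-3, 32-25 or 32-31. In KO_ERRb_wt 1 gene was called lower without 8-4.

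Utf1 (chr7:139943856-139945112, plus strand) encodes a chromatin-associated protein that limits transcription at bivalent genes in mouse ESCs. Its level was 0.425 times that of KO_mock in KO_ERRb_DBDm6 and 0.473 times in KO_ERRb_AF2M6, and it was not called different between KO_mock and WT_mock. Utf1 read 60.5 and 58.7 CPM in KO_ERRb_DBDm3, 29.1 and 28.7 CPM in KO_ERRb_DBDm6, 32.7 and 31.7 CPM in KO_ERRb_AF2M6 and 52.3 and 58.7 CPM in KO_ERRg_wt. It read 81.2 and 80.5 CPM in KO_ERRb_wt, 77.8 and 58.3 CPM in KO_mock and 57.3 and 68.2 CPM in WT_mock. The 4 clones of KO_ERRb_DBDm6 and KO_ERRb_AF2M6 were below all 10 others, and both KO_ERRb_wt clones were above all others. Against KO_mock it fell by 1.24 in KO_ERRb_DBDm6 (log2 -1.24 ± 0.12, adjusted p = 4.18e-05) and by 1.08 in KO_ERRb_AF2M6 (log2 -1.08 ± 0.12, 9.76e-05). Against KO_ERRb_wt the same groups gave -1.48 ± 0.13 (1.77e-05) and -1.33 ± 0.12 (2.61e-05), KO_ERRb_DBDm3 gave -0.44 ± 0.12 (0.0174) and KO_ERRg_wt gave -0.54 ± 0.12 (0.0083). The KO_ERRb_DBDm3 value lost its call without 8-3 (0.0787), 8-4 (0.0588) or 9-8 (0.0645) and when its 4 clones were fitted alone (0.0584), and that of KO_ERRg_wt without 14-1-10 (0.082). Against KO_mock, KO_ERRb_DBDm3 gave -0.19 ± 0.12 (adjusted p = 0.272) and KO_ERRg_wt gave -0.30 ± 0.12 (0.0791), both called without clone 12-3 (0.046 and 0.00976). Whether KO_ERRb_DBDm3 differs from the other mutant groups was not tested directly, though its clones do not overlap theirs. KO_mock against WT_mock gave 0.12 ± 0.12 (0.472), with a 95% interval of -0.17 to 0.40.

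Dppa4 (chr16:48283735-48294292, plus strand) and Dppa2 (chr16:48310274-48319513, plus strand) are neighbouring genes whose SAP-domain products bind chromatin as a pair and prime genes for activation. Their differences were at most 0.50 on the log2 scale. Dppa4 read 94.7 and 113 CPM in KO_ERRb_DBDm3, 91 and 88.1 CPM in KO_ERRb_DBDm6, 90.6 and 96.8 CPM in KO_ERRb_AF2M6 and 81.3 and 77.2 CPM in KO_ERRg_wt. It read 92.2 and 98.9 CPM in KO_ERRb_wt, 99.6 and 104 CPM in KO_mock and 82.1 and 93.1 CPM in WT_mock. Both KO_ERRg_wt clones were below all others, and most other groups overlapped. KO_ERRg_wt gave -0.36 ± 0.091 against KO_mock (adjusted p = 0.00911), lost without 12-3 (0.0567) or 14-11 (0.0666). Against KO_ERRb_wt it gave -0.27 ± 0.091 (0.0493), lost without any of 8-3, 8-4, 14-1-10 or 14-11 (0.0728 to 0.219) and under relative log expression scaling (0.0509). A pair of further values passed without 1 clone, 0.22 ± 0.09 for KO_mock against WT_mock (adjusted p = 0.0758, and 0.0486 without 5-5) and 0.12 ± 0.09 for KO_ERRb_DBDm3 against KO_ERRb_wt (0.34, and 0.0415 without 9-6).

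Dppa2 read 45.7 and 58.9 CPM in KO_ERRb_DBDm3, 40 and 41.6 CPM in KO_ERRb_DBDm6, 39.7 and 39.5 CPM in KO_ERRb_AF2M6 and 43.3 and 42.2 CPM in KO_ERRg_wt. Its levels were 46.4 and 61.2 CPM in KO_ERRb_wt, 53.7 and 57.9 CPM in KO_mock and 42.4 and 44.7 CPM in WT_mock. The 4 clones of KO_ERRb_DBDm6 and KO_ERRb_AF2M6 were the lowest, and KO_mock lay above WT_mock with no overlap. Against KO_mock the log2 fold change was -0.45 ± 0.13 in KO_ERRb_DBDm6 (adjusted p = 0.0171), -0.50 ± 0.13 in KO_ERRb_AF2M6 (0.012) and -0.38 ± 0.13 in KO_ERRg_wt (0.0398). Against KO_ERRb_wt it was -0.40 ± 0.13 in KO_ERRb_DBDm6 (0.0314) and -0.44 ± 0.13 in KO_ERRb_AF2M6 (0.018). None of these 5 calls held with every clone left out in turn. The first was lost without 12-3, 10-24 or 10-26 (0.0633 to 0.0989), the second without 12-3 (0.0792) or 32-31 (0.056) and the third without 12-1, 12-3, 14-1-10 or 14-11 (0.0833 to 0.166). The fourth was lost without 8-4, 10-24 or 10-26 (0.0938 to 0.301) and the fifth without 8-4, 32-25 or 32-31 (0.0603 to 0.182). KO_mock against WT_mock gave 0.36 ± 0.13 at an adjusted p of 0.0506, which passed under relative log expression scaling (0.0411) and with DESeq2 (0.0277). Without clone 8-3, whose partner 8-4 was the highest of all clones, KO_ERRb_wt against WT_mock (adjusted p = 0.151 with it) passed at 0.0416 and KO_ERRg_wt against KO_ERRb_wt (0.0902 with it) passed at 0.021.

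Of 13 listed DPPA genes and known targets of DPPA2 and DPPA4, 6 had enough counts to be tested, so the list says little. In KO_mock against WT_mock, Dppa3 on chromosome 6, an oocyte and early embryo gene, was higher by 1.67 ± 0.29 (adjusted p = 0.00189). Mael, a piRNA pathway gene, gave -0.97 ± 0.32 (0.0338), lost without 5-2 (0.191), 12-1 (0.101) or 12-3 (0.165). Mael was higher than in KO_mock in all mutant groups, by 1.65 ± 0.32, 1.64 ± 0.32 and 1.44 ± 0.32 (0.00374, 0.00182 and 0.00438), at mean levels of 3.33, 3.3 and 2.87 CPM against 1.06 CPM. Tex19.1, a germ-line gene that restrains retrotransposons, was higher in the same groups by 1.04 ± 0.2, 0.79 ± 0.2 and 1.07 ± 0.2 (0.00449, 0.0101 and 0.00212), the middle value lost without 12-1 (0.0677) or 10-24 (0.0619). With ERR gamma, Mael gave 1.35 ± 0.33 (0.00767), lost without 12-3 (0.0603) or 14-1-10 (0.0805), and Dppa3 gave -0.82 ± 0.29 (0.043), lost without any of its 4 clones (0.0691 to 0.226). On chromosome 6, which holds Dppa3, the median gene was also lower in both KO_ERRg_wt clones than in WT_mock. Against KO_mock, 2, 4 and 3 of the 6 were called higher in KO_ERRb_DBDm3, KO_ERRb_DBDm6 and KO_ERRb_AF2M6. These counts depended on single clones. With some left out, fewer were called in KO_ERRb_DBDm6 and KO_ERRb_AF2M6, with the largest drop in KO_ERRb_DBDm6. With others left out, more were called in KO_ERRb_DBDm3 and KO_ERRb_DBDm6. Of all tested genes, 25.7%, 41.4% and 37.1% were called there. No listed gene was called lower in a mutant group. In KO_ERRb_wt against KO_mock edgeR called 0 of the 6 and 1.85% of all tested genes. DESeq2 also called 0 of the 6, and 1 had an unadjusted p below 0.05 by edgeR.

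Dppa5a (chr9:78367054-78368199, minus strand) encodes a small KH-domain RNA-binding protein abundant in naive ESCs, and was the only one of the 10 genes called lower in the knockout than in wild-type cells. It was highest with ERR gamma. Its clones stood at 578 and 534 CPM in KO_ERRb_DBDm3, 616 and 727 CPM in KO_ERRb_DBDm6, 629 and 546 CPM in KO_ERRb_AF2M6 and 941 and 905 CPM in KO_ERRg_wt. They stood at 662 and 519 CPM in KO_ERRb_wt, 448 and 486 CPM in KO_mock and 733 and 688 CPM in WT_mock. Both KO_ERRg_wt clones were above all 12 others and both KO_mock clones were below all others. KO_mock against WT_mock gave -0.61 ± 0.12 (adjusted p = 0.00298). Against KO_mock the log2 fold change was 0.98 ± 0.12 in KO_ERRg_wt (1.98-fold, 0.000145), 0.52 ± 0.12 in KO_ERRb_DBDm6 (0.00466) and 0.33 ± 0.12 in KO_ERRb_AF2M6 (0.0452). Against KO_ERRb_wt it was 0.64 ± 0.12 in KO_ERRg_wt (0.00283). The KO_ERRb_DBDm6 call was lost without 10-26 (0.0508). The KO_ERRb_AF2M6 call was lost without 12-1 (0.218), 12-3 (0.0914) or 32-25 (0.244), and with TMM factors from the other chromosomes than 6, 8 and 14 (0.0838). Without clone 8-3, KO_ERRb_wt against WT_mock (-0.27 ± 0.12, adjusted p = 0.162) passed at 0.0413 and KO_ERRb_DBDm6 against KO_ERRb_wt (0.19 ± 0.12, 0.237) passed at 0.0365.

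Tdgf1 (chr9:110939608-110946158, minus strand) encodes CRIPTO, the cell-surface co-receptor for NODAL. It was lower than in the knockout in KO_ERRb_DBDm6 and KO_ERRb_AF2M6. Tdgf1 read 199 and 214 CPM in KO_ERRb_DBDm3, 160 and 191 CPM in KO_ERRb_DBDm6, 191 and 123 CPM in KO_ERRb_AF2M6 and 223 and 218 CPM in KO_ERRg_wt. It read 235 and 228 CPM in KO_ERRb_wt, 258 and 293 CPM in KO_mock and 240 and 273 CPM in WT_mock. All mutant clones were below both clones of each of the other groups, but the clones of KO_ERRb_AF2M6 stood 0.63 apart on the log2 scale, the widest gap within a group among the 10 genes. Against KO_mock it fell by 0.65 in KO_ERRb_DBDm6 (log2 -0.65 ± 0.16, adjusted p = 0.0085) and by 0.81 in KO_ERRb_AF2M6 (log2 -0.81 ± 0.16, 0.00302). The first was lost without 12-3 (0.0628) or 10-24 (0.0775). KO_ERRb_AF2M6 against KO_ERRb_wt gave -0.56 ± 0.16 (0.0181), lost without 8-3 (0.0807), 8-4 (0.0525) or 32-31 (0.111) and when the 4 clones were fitted alone (0.0952). KO_ERRb_DBDm3 against KO_mock gave -0.42 ± 0.16 (0.0834), which passed with DESeq2 (0.0456).

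Of 17 tested NODAL pathway genes (of 19 listed), 2 were higher and 7 lower in KO_mock than in WT_mock, beside 37.4% of all tested genes. The receptor gene Acvr1b was lower by 0.81 ± 0.083 (adjusted p = 0.000145), the convertase genes Pcsk6 and Furin, whose products process NODAL, by 1.06 ± 0.14 (0.000383) and 0.93 ± 0.14 (0.000868), and the inhibitory Smad7 by 0.61 ± 0.11 (0.00238). Against KO_mock, 5 were higher and 2 lower in KO_ERRb_DBDm3, 7 and 3 in KO_ERRb_DBDm6, 6 and 4 in KO_ERRb_AF2M6, 6 and 3 in KO_ERRg_wt and 1 and 0 in KO_ERRb_wt. Over all tested genes the called shares were 25.7%, 41.4%, 37.1%, 38.3% and 1.85%, and the list medians ran from 0.03 to 0.09. Lefty1, the secreted antagonist that NODAL signalling induces, averaged 171, 176 and 166 CPM in the 3 mutant groups against 43.2 CPM in KO_mock (log2 1.98 ± 0.2, 2.02 ± 0.2 and 1.95 ± 0.2, with adjusted p = 0.000142, 4.3e-05 and 6.21e-05). Tdgf1 and Lefty1 thus moved in opposite directions in KO_ERRb_DBDm6 and KO_ERRb_AF2M6. With ERR gamma, Acvr1b was higher by 0.72 ± 0.084 (0.00011) and Pcsk6 by 1.11 ± 0.14 (0.000148). The gene called with wild-type ERR beta was Acvr1b (0.40 ± 0.083, adjusted p = 0.0403), lost without 12-1 (0.288), 12-3 (0.23) or 8-3 (0.335). The 2 higher genes of KO_mock became 0 without 5-2 and 1 without 12-1 or 12-3, and its 7 lower genes became 4 without 12-3. The 5 higher genes of KO_ERRb_DBDm3 became 3 without 12-1, 12-3 or 9-8, and the 7 of KO_ERRb_DBDm6 became 4 without 10-26. The 2 lower genes of KO_ERRb_DBDm3 became 1 without 12-1 or 9-8, 0 without 12-3 and 3 without 9-6. The 3 lower genes of KO_ERRg_wt became 1 without 12-1, 12-3 or 14-1-10 and 0 without 14-11.

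**Figure D2:**
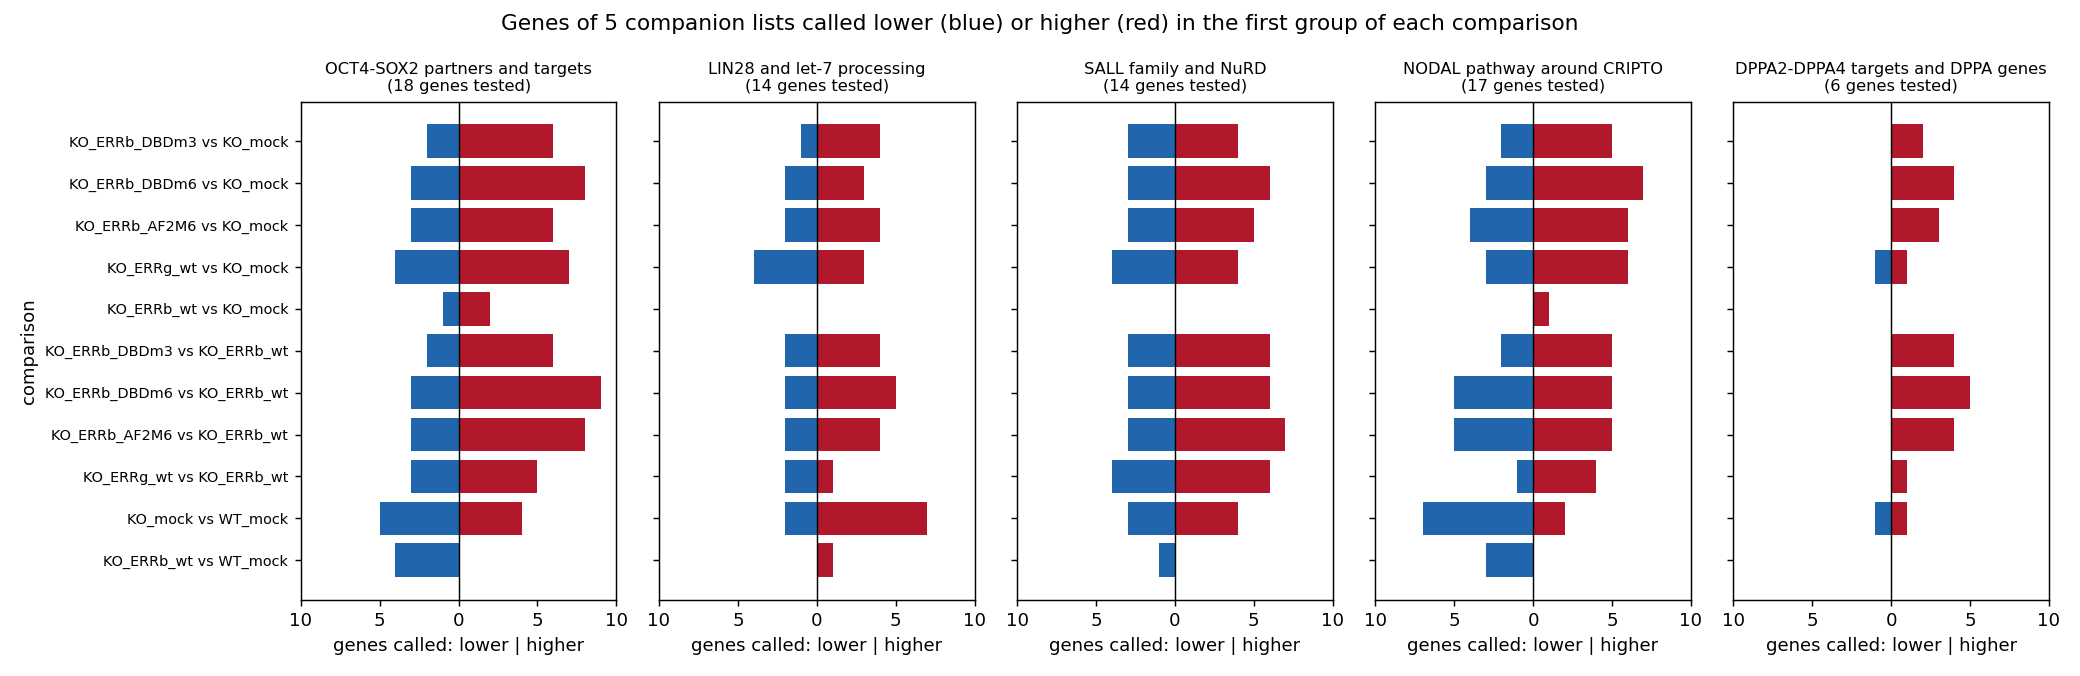
Number of genes called higher (right of 0) and lower (left of 0) in each companion list and comparison, by edgeR at an adjusted p below 0.05. Red bars are genes higher in the first group named, and blue bars are genes lower in it. Each panel is a list, with the number of its genes that were tested. In the comparison of KO_ERRb_wt with KO_mock at most 2 genes of any list were called in a direction.

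Counted by comparison, 5 of the 10 genes differed between the knockout and wild-type cells and none passed the test on the return of wild-type ERR beta. In KO_mock against WT_mock 4 of the 10 genes were called higher (Pou5f1, Sall4, Lin28a and L1td1) and 1 lower (Dppa5a), where 37.4% of all tested genes were called. The count ran from 4 (without 5-2) to 6 (without 5-5). Their median log2 fold change was 0.27, against 0.00 over all genes. With only 10 genes, 5 called is near that background.

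In KO_ERRb_wt against KO_mock edgeR called 0 of the 10 genes, where 1.85% of all tested genes were called, and 5 had an unadjusted p below 0.05 (Pou5f1, Sall4, Lin28a, L1td1 and Dppa5a). DESeq2 called 1, L1td1 (-0.44, adjusted p = 0.0054). Each of these 5 genes had moved in KO_mock, and here each value had the opposite sign: -0.20 ± 0.072 for Pou5f1, -0.30 ± 0.11 for Sall4, -0.35 ± 0.12 for Lin28a, -0.43 ± 0.1 for L1td1 and 0.34 ± 0.12 for Dppa5a, with adjusted p of 0.162, 0.17, 0.146, 0.0609 and 0.152. Both comparisons use the 2 KO_mock clones, so opposite signs are partly built in. The clone ranges of KO_ERRb_wt and KO_mock overlapped for Sox2 and Dppa2 and for none of the other 8. The share of all tested genes without overlap was not computed, so no conclusion is drawn from that count. In KO_ERRb_wt against WT_mock 2 were called, both higher (Sall4 and Lin28a), where 10.3% of all tested genes were called. That count was 0 without 5-2 or 8-4 and 3 without 8-3.

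Against KO_mock, 2 of the 10 genes were called in KO_ERRb_DBDm3 (1 higher, 1 lower), where 25.7% of all genes were called, and 7 in KO_ERRb_DBDm6 (2 higher, 5 lower), where 41.4% were. In KO_ERRb_AF2M6 6 were called (2 higher, 4 lower) against 37.1% of all genes, and in KO_ERRg_wt 8 (2 higher, 6 lower) against 38.3%. Sox2 was the higher gene in all 4 groups and was joined by Dppa5a in 3 of them, and L1td1 was the gene called lower in all 4. These comparisons share the KO_mock clones. With 1 clone left out the counts were 1 to 2, 4 to 6, 4 to 5 and 4 to 6 in that order, and fitted alone the 4 clones of KO_ERRb_DBDm3 and KO_mock gave 0. The count was 1 for KO_ERRb_DBDm3 without 12-1 or 9-8, and 4 for KO_ERRb_DBDm6 without 12-3, 10-24 or 10-26. It was 4 for KO_ERRb_AF2M6 without 12-3, and for KO_ERRg_wt 4 without 14-11 and 5 without 12-1.

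Against KO_ERRb_wt, 2 were called in KO_ERRb_DBDm3 (Sox2 higher, Utf1 lower), where 32.1% of all genes were called, and 4 in KO_ERRb_DBDm6 (1 higher, 3 lower), where 39% were. In KO_ERRb_AF2M6 7 were called (3 higher, 4 lower) against 43.2% of all genes. In KO_ERRg_wt 6 were called (2 higher, 4 lower) against 25.4%. Sox2 was higher and Utf1 lower in all 4 groups. With 1 clone left out the counts were 1 to 3, 2 to 5, 3 to 6 and 2 to 5 in that order. The count was 1 for KO_ERRb_DBDm3 without 8-3 or 9-8, and 2 for KO_ERRb_DBDm6 without 8-4, 10-24 or 10-26. For KO_ERRb_AF2M6 it was 3 without 32-31 and 4 without 8-4, and for KO_ERRg_wt 2 without 14-1-10 and 3 without 8-4 or 14-11. KO_ERRb_DBDm3 thus had the fewest of the 10 genes called among the 4 groups, against both KO_mock and KO_ERRb_wt. Against KO_mock it also had the smallest share of all genes called (25.7%). Against KO_ERRb_wt its share (32.1%) was above that of KO_ERRg_wt (25.4%). With only 10 genes, its 2 calls in each comparison are near these shares, and the difference between groups in these counts was not tested.

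**Figure D3:**
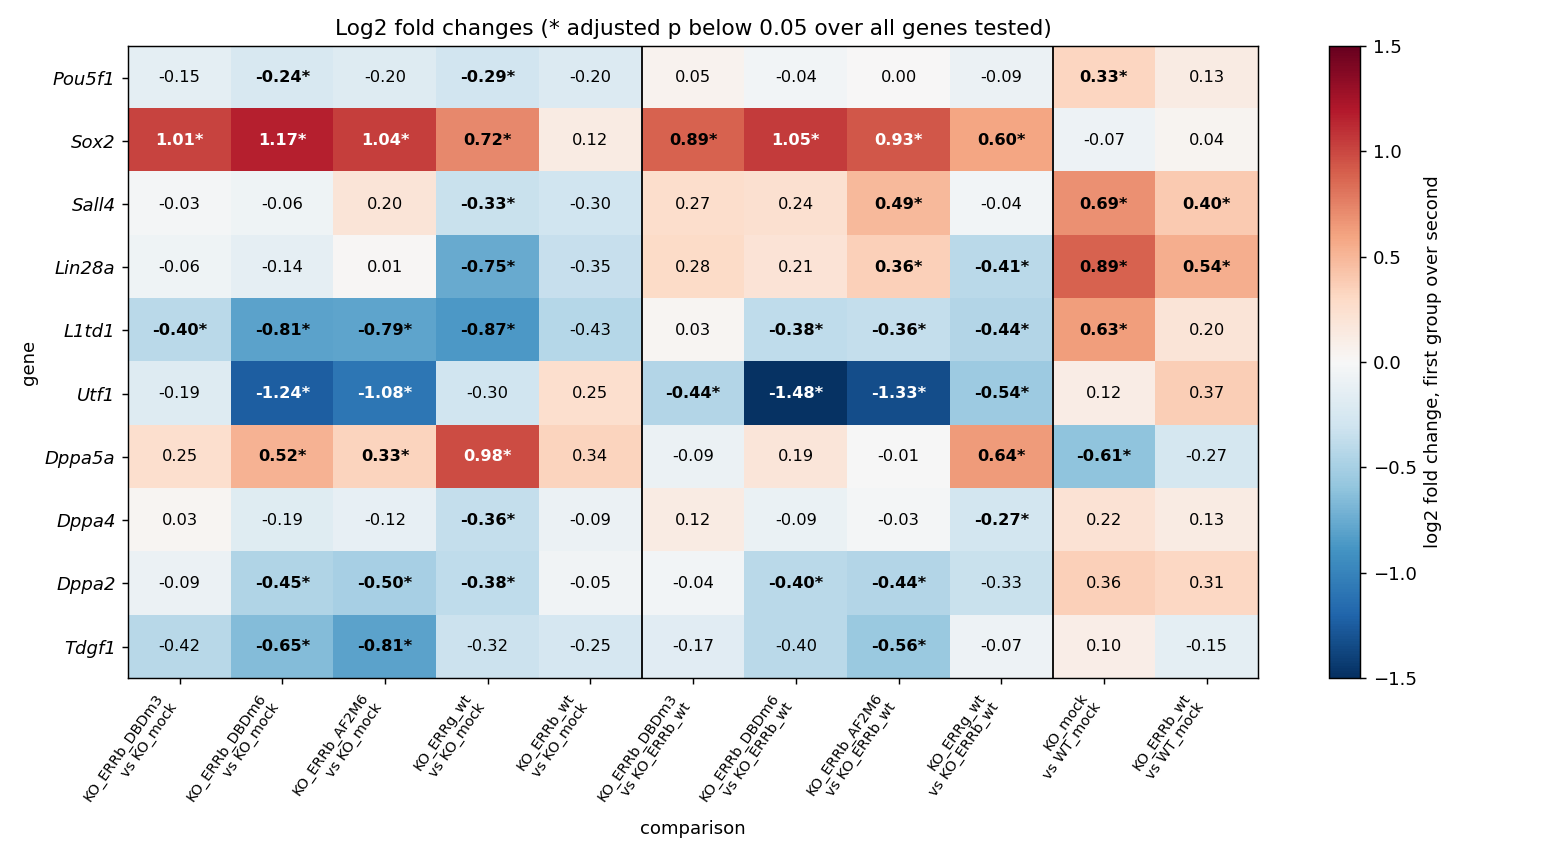
Log2 fold change of each of the 10 genes (rows) in each of the 11 comparisons (columns), with the value printed in each cell and called values (edgeR, adjusted p below 0.05) marked. The Sox2 row reads 0.72 to 1.17 in the 4 columns of mutant and ERR gamma groups against KO_mock, and the Utf1 row reads -1.24 and -1.08 for KO_ERRb_DBDm6 and KO_ERRb_AF2M6.

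The genes next to each of the 10 were looked at after the data had been seen, 5 tested genes on either side. Around Sox2 their median log2 fold change against KO_mock was 0.20, 0.17 and 0.28 in the 3 mutant groups and 0.17 in KO_ERRg_wt, below the Sox2 values of 0.72 to 1.17. Sox2ot, the long noncoding RNA gene whose span contains Sox2, gave 1.26 in KO_ERRb_DBDm3 (adjusted p = 0.0316), 1.01 in KO_ERRb_DBDm6 (0.0522), 1.19 in KO_ERRb_AF2M6 (0.0294) and 0.20 in KO_ERRg_wt (0.741). Fxr1, an RNA-binding protein gene upstream of Sox2, was higher in the same groups by 0.42, 0.68, 0.57 and 0.52 (0.00152, 4.18e-05, 0.000133 and 0.000247). Ccdc39, a gene of motile cilia, was higher by 1.44, 1.16, 1.04 and 1.62 (0.00101, 0.00153, 0.00329 and 0.000269). Around Utf1 the median was -0.10, -0.16, -0.41 and -0.17 in the same 4 groups, where Utf1 gave -0.19, -1.24, -1.08 and -0.30. Around Pou5f1 the neighbours had a median of -0.80, -0.81, -0.76 and -0.46, further below 0 than the values of Pou5f1 itself (-0.15, -0.24, -0.20 and -0.29). Around L1td1 the median was 0.10, 0.16, 0.00 and 0.34, where L1td1 gave -0.40 to -0.87.

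**Figure D4:**
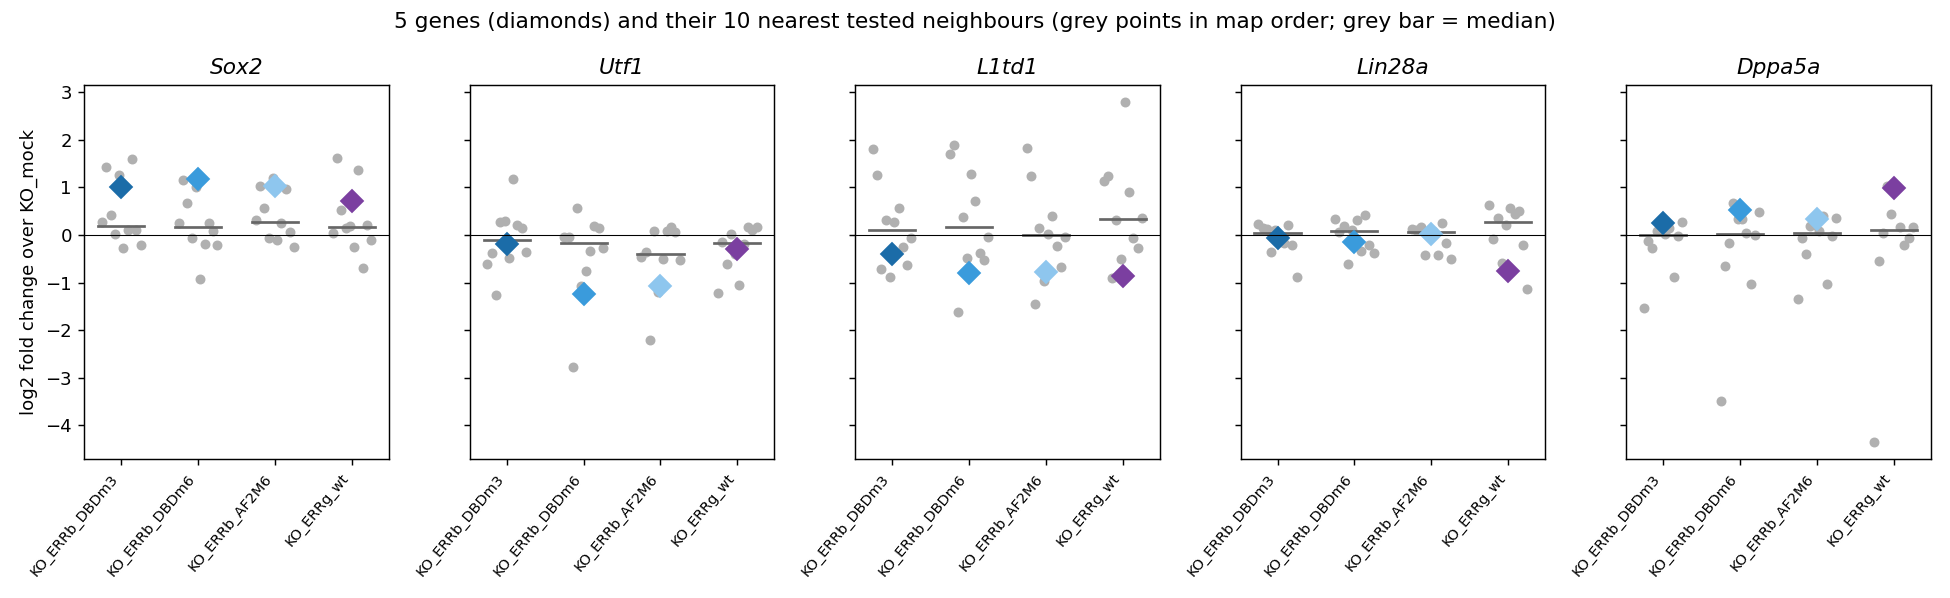
Log2 fold change against KO_mock of Sox2, Utf1, L1td1, Lin28a and Dppa5a (diamonds) and of the 10 nearest tested neighbours of each (grey points, with their median as a bar), in the mutant and ERR gamma groups. Sox2 (0.72 to 1.17) lies above the median of its neighbours (0.17 to 0.28) in all 4 groups.

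Genes with the most similar pattern over the 14 clones were found by Pearson correlation of log2 CPM among 10880 genes, as a description only, since clones of a group share their history and the highest of many correlations is high by choice. Sox2 was most like Rbmxl2 (r = 0.985) and Fbrsl1 (0.978), and Lin28a most like Ebna1bp2 (0.984) and Nol9 (0.983), both on its own chromosome. Among the genes reported here, the pattern of Sall4 was like that of Spata5 (0.979), that of Dppa5a like Pbxip1 (0.968) and Ctnna1 (0.967), and L1td1 like Traf3ip1 (0.963) and Foxp1 (0.947). Utf1 was most like Flrt3 (0.955) and Ankrd26 (0.947), Dppa4 like Snord83b (0.942) and Nhej1 (0.936), and Pou5f1 like Rbm10 (0.929) and Ndrg1 (0.927). Dppa2 was most like Brap (0.928) and Zzef1 (0.919), and Tdgf1 like Relt (0.923) and Scamp1 (0.922). Foxp1 and Ankrd26 lie on chromosome 6, whose genes were lower in the mutant and ERR gamma clones.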

How the data were processed

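Per the submitters' processing notes, the authors mapped reads to mm10 using STAR 2.7.8a. Whole-number read counts for each gene were deposited by the authors, made with featureCounts (version 2.0.1 per the file headers, 2.0.10 per the submitters' processing notes), over exons, on the reverse strand, counting a read for each gene it overlaps and leaving out multi-mapping reads. Reads shared with pseudogene copies are therefore missing by an unknown amount. None of the 10 genes shares exonic bases with another gene on either strand.

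Counts of a clone's libraries were summed, because the clone is the replicate. Genes were tested with edgeR 4.0.16 in R 4.3.3 (filterByExpr, TMM factors of 0.972 to 1.05, robust quasi-likelihood fit of all 14 clones with 7 residual degrees of freedom, biological coefficient of variation 0.116). P-values were adjusted by Benjamini-Hochberg over 15238 genes, with calls at 0.05. A prior count of 0.125 was used for log2 fold changes, given with standard errors. The 95% intervals used the 7 residual degrees of freedom alone. The test also used prior degrees of freedom (median 4.28 over genes), so the intervals are wider than ones matching its p-values. With 2 clones per group, a p-value reflects clone-to-clone spread, which includes how each clone was made. The pipeline was tested on simulated data for KO_ERRb_wt against KO_mock, with 100 genes changed 1.5-fold and 100 changed 2-fold. It called 53% and 77% of them in the right direction, and 0.0271% of unchanged genes. A gene not called may therefore still have changed. The changed genes were few beside the calls in most comparisons and were drawn from genes of low to high level. These rates thus hold for that setting, and rates for the 10 genes or the other comparisons were not estimated. RefSeq promoter windows matched 6 of the 10 genes. Every one of the count columns was used.

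The 10 genes, the companion lists and the comparisons were chosen with earlier results of these data known. From each companion list, at most 4 called genes with the smallest p were named for KO_mock against WT_mock and at most 2 elsewhere. Genes of like pattern were the 2 with the highest correlation to each of the 10, and a gene meeting that rule is not reported here. Alternatives were relative log expression scaling, no filter on low counts, TMM without chromosomes 6, 8 and 14, a fit of the 4 clones compared, DESeq2 1.42.0, limma 3.58.1 voom on unsummed libraries with and without the library number as a block, and each clone left out.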

Additional observations from a re-analysis of the deposited data

How the results depend on the processing

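Of 1190 alternative values for the 10 genes, 1020 stayed on the same side of the threshold in the same direction, 76 lost their call and 57 gained one. No called value changed sign. In 37 the sign differed with no call in either fit, all for main values of at most 0.19 on the log2 scale. Of the counts of called genes among the 10, the 0 in KO_ERRb_wt against KO_mock became 1 with no filter on low counts or with DESeq2, 4 with the 4 clones fitted alone, 3 with voom and no replicate block and 2 with the replicate block. Over all genes its 282 calls became 1563 with the 4 clones alone, 930 with DESeq2 and 765 and 571 with voom. The 2 in KO_ERRb_DBDm3 against KO_mock became 0 with the 4 clones alone, where calls over all genes were 287 in place of 3915. The 2 in KO_ERRb_DBDm3 against KO_ERRb_wt became 1 with the 4 clones alone (791 over all genes in place of 4892) and 4 with voom, with or without the replicate block. With 1 clone left out the counts ran from 4 to 6 in KO_mock against WT_mock and 0 to 3 in KO_ERRb_wt against WT_mock. Against KO_mock they ran from 0 to 1 in KO_ERRb_wt, 1 to 2 in KO_ERRb_DBDm3, 4 to 6 in KO_ERRb_DBDm6, 4 to 5 in KO_ERRb_AF2M6 and 4 to 6 in KO_ERRg_wt. Against KO_ERRb_wt they ran from 1 to 3, 2 to 5, 3 to 6 and 2 to 5 in those groups, and among the 7 groups from 7 to 10. The cause of these changes was not tested, beyond that a fit of 4 clones has fewer samples. Leaving out a clone leaves 1 in its group, which is assumed to vary like the other groups. Deviations of same-numbered libraries correlated between -0.12 and 0.36 over 66 pairs of clones, with a median of 0.00 and 7 over 0.1. Library numbers thus did not pair the clones as a whole, though some pairs of clones shared part of their deviation. Whether clones of the same group share more of it was not tested.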

Other observations

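Nanog and Zfp42, ESC genes outside the list, lie on chromosomes whose genes were lower in the mutant and ERR gamma clones. Nanog, on chromosome 6, read 717 and 689 CPM in KO_ERRb_DBDm3, 784 and 816 CPM in KO_ERRb_DBDm6, 709 and 666 CPM in KO_ERRb_AF2M6 and 944 and 913 CPM in KO_ERRg_wt. It read 742 and 678 CPM in KO_ERRb_wt, 544 and 582 CPM in KO_mock and 912 and 925 CPM in WT_mock. Its 8 mutant and ERR gamma clones thus stood above both KO_mock clones, while the median gene of chromosome 6 was lower in them. Zfp42, the zinc-finger gene REX1 on chromosome 8, read 262 and 308 CPM in KO_ERRb_DBDm3, 272 and 284 CPM in KO_ERRb_DBDm6, 282 and 272 CPM in KO_ERRb_AF2M6 and 257 and 244 CPM in KO_ERRg_wt. Its other clones read 353 and 386 CPM in KO_ERRb_wt, 372 and 397 CPM in KO_mock and 324 and 369 CPM in WT_mock.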
